A study of Mus musculus with 7 samples.

Results

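Immediate early genes are switched on within minutes to hours of a growth signal, a stress or an injury, from factors already present in the cell. MAP kinases phosphorylate the serum response factor partners and CREB, these act on the promoters of *Fos*, *Egr* and *Nr4a* genes, and the Fos and Jun proteins made from them pair into AP-1, which acts on later genes. The response is also known for its own brakes, since dual specificity phosphatases and RNA decay factors encoded by the same wave shut the kinases and the transcripts down again. In the liver this programme opens regeneration after tissue loss or a toxin.

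The genes described here were 39 immediate early and AP-1 response genes, chosen by name, by a rule that uses no measured value, although earlier results of these data were known when they were chosen. All 39 were found among the 14851 gene identifiers of the deposited table. A mean of at least 10 normalised counts over the livers was required for a test, which 12545 genes met, 37 of the 39 among them, while *Egr3* and *Klf5* fell below it.

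RNA was sequenced from whole livers of C57BL/6J (N10) male mice at about 70 days of age, 8 h after a single intraperitoneal dose of the hepatotoxin carbon tetrachloride (CCl4, 1 mL/kg of a 20% stock in corn oil). The 4 FL livers came from *Albumin-Cre; p53FL/FL* mice and the 3 WT livers from *Albumin-Cre; p53WT/WT* mice, so both genotypes carried the Cre transgene, both were treated, and no untreated liver was analysed here. A level at 8 h is therefore not an induction. The *Albumin* promoter drives Cre in hepatocytes and in the precursors they share with bile duct cells, so endothelial, stellate and blood cells are not its targets. Some mice of both genotypes carried a red fluorescent reporter. All WT source names share 1 prefix that no FL source name has, so that prefix and the genotype cannot be told apart.

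*Trp53* was lower in every FL liver, at 131, 130, 217 and 110 normalised counts against 876, 688 and 831 in the WT livers (log2 fold change -2.47, SE 0.23, limma adjusted p = 0.0447). The 8 hepatocyte markers summed to between 1527670 and 1996166 normalised counts in FL livers and between 1311587 and 1559177 in WT livers. *Alb* alone made up most of each sum, at 1118758 to 1511638 in FL and 956556 to 1200274 in WT. All 8 had a higher fitted mean in FL. The estimated depth on genes was 11900000 to 19500000 reads in FL and 15400000 to 17100000 in WT. In each genotype 1 liver stood apart from the others, WT replicate 2 and FL replicate 3, and the main results below are given with these livers and without them.

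No member differed between genotypes after adjustment over all genes (0 of 37, limma, Benjamini-Hochberg adjustment), where 0.0159% of the 12545 genes did. At an unadjusted p under 0.05, 3 members were higher in FL, *Jun*, *Cebpb* and *Cebpd*, which is 8.11% of the 37 against 1.59% of all genes. None was lower in FL, against 1.6% of all genes. *Cebpd* was the 1 member with every FL liver above every WT liver (2.7% of the 37, against 2.77% of all genes). No member had every FL liver below every WT liver, where 1.98% of all genes did. The members' median log2 fold change was 0.04, with 22 above 0 and 15 below, beside a median of 0.01 over all genes. Their median size without sign was 0.31, against 0.12 over all genes, and their median standard error was 0.31, against 0.19. The genes therefore varied more from liver to liver than the usual gene, and the plot of all members by liver shows where that variation lay.

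**Figure D1:**
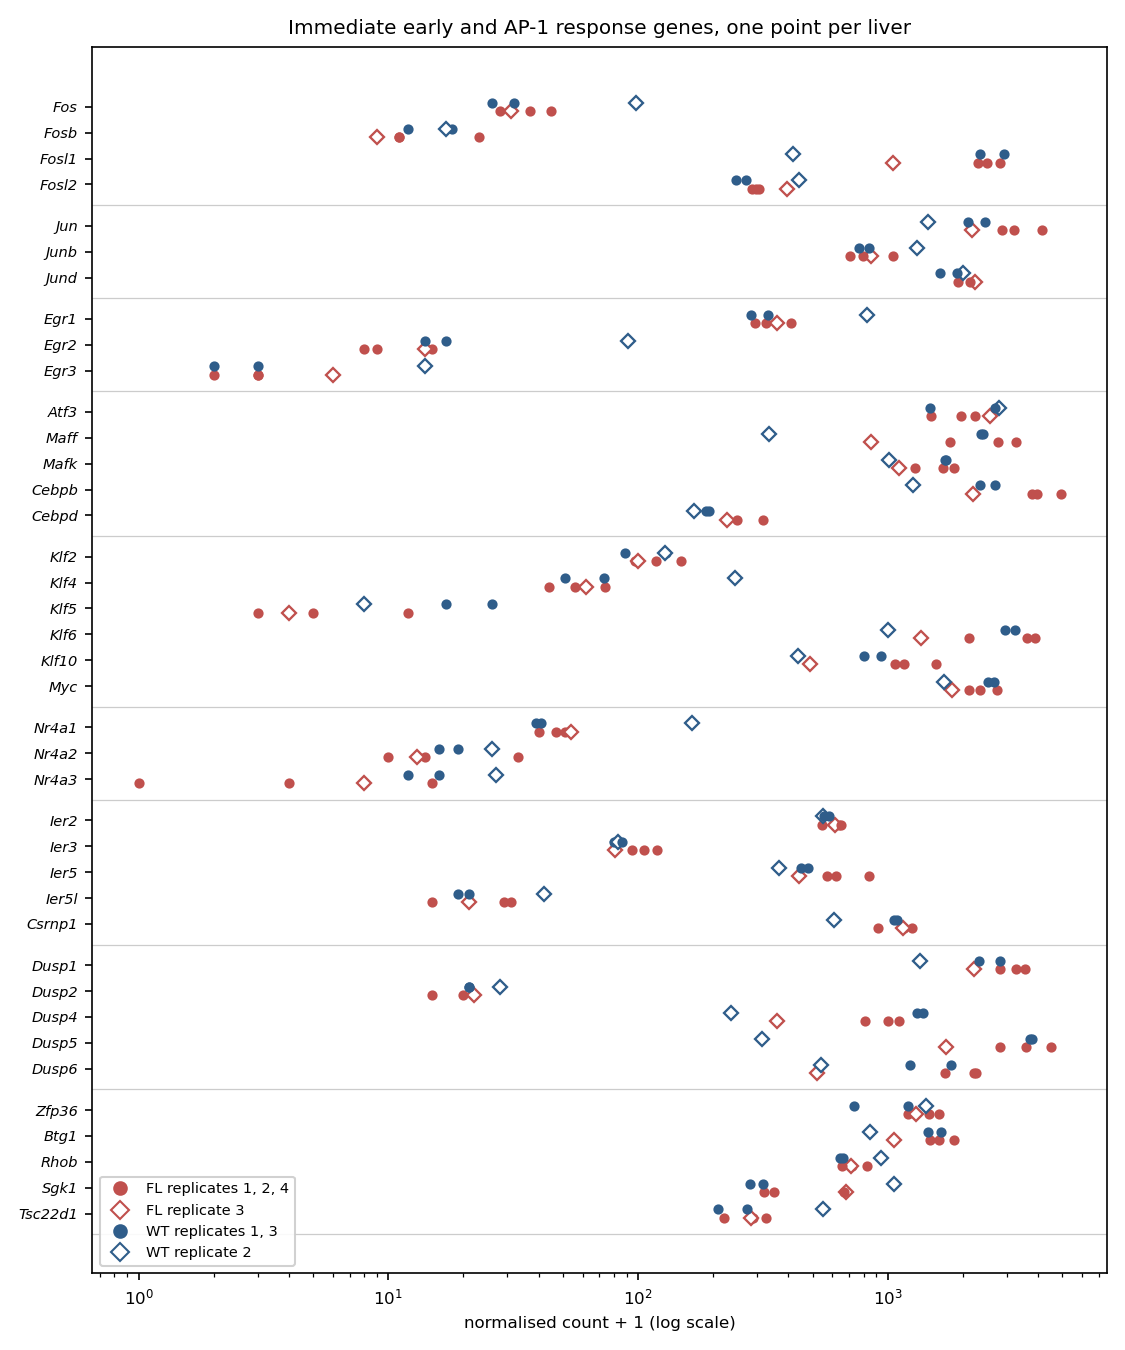
Normalised count plus 1 (log scale) of the 39 members in each of the 7 livers, grouped by role, with FL livers in red, WT livers in blue and open diamonds for FL replicate 3 and WT replicate 2. For *Fosl1*, *Maff*, *Dusp4* and *Dusp5* each open diamond is the lowest point of its genotype, and for *Fos*, *Egr1*, *Egr2* and *Nr4a1* the open blue diamond is the highest point of all.

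Among the Fos proteins, which bind DNA only as partners of Jun proteins, *Fos* itself was low. It stood at 36, 44, 30 and 27 normalised counts in FL livers and at 25, 97 and 31 in WT livers. WT replicate 2 was the highest of all livers, and the other WT livers lay within or just below the FL range. *Fosb* was lower still, at 22, 10, 8 and 10 in FL and 17, 16 and 11 in WT, with full overlap of the groups.

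*Fosl1*, which encodes Fra-1, a Fos protein that accumulates later in the response and lacks a strong activation domain, was the most abundant family member per length. *Fosl1* reached 1007 normalised counts per kb of exon averaged over the livers, *Fosl2* 33.0, *Fos* 17.6 and *Fosb* 2.15. The *Fosl1* normalised counts were 2825, 2501, 1053 and 2291 in FL livers and 2920, 415 and 2332 in WT livers. One liver of each genotype was low and the other 5 lay between 2291 and 2920. The log2 fold change was 0.52 (SE 0.67) in the 7 livers and -0.04 (SE 0.12) without WT replicate 2 and FL replicate 3, with limma adjusted p-values of 0.999 and 0.928. *Fosl2* (Fra-2) was highest in those same livers, at 394 in FL replicate 3 and 439 in WT replicate 2, against 245 to 304 elsewhere. Exons of *Ccdc85b* on the other strand cover 57.2% of the *Fosl1* exon bases, so where counting did not use strand the reads of this pair cannot be told apart.

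The Jun proteins pair with each other as well as with Fos proteins, and c-Jun is known for its part in hepatocyte survival and proliferation. *Jun* (GRCm38 chr4:95049034-95052222, minus strand) was at 4136, 3203, 2167 and 2869 normalised counts in FL livers and 2453, 1444 and 2092 in WT livers. FL replicate 3 lay among the WT livers and the other 3 FL livers lay above all of them. The log2 fold change was 0.63 (SE 0.25), with an unadjusted p of 0.037 and an adjusted p of 0.999 in limma, and an exact permutation p of 0.086 over the 35 arrangements of the livers. Without the pair of livers that stood apart it was 0.57 (SE 0.15, limma adjusted p = 0.270). The unadjusted limma p of *Jun* rose above 0.05 when FL replicate 1, 2 or 4 or WT replicate 2 or 3 was left out, to between 0.058 and 0.105, the highest without WT replicate 2 (log2 fold change 0.41).

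*Junb*, often an antagonist of c-Jun, was at 703, 1050, 856 and 798 in FL livers and 768, 1307 and 837 in WT livers, highest in WT replicate 2. *Jund*, the Jun protein of resting cells, varied least of the family, by 1.37-fold from the lowest liver to the highest. Per kb of exon *Jund* stood at 1199, *Jun* at 823 and *Junb* at 392. *Jund* had a log2 fold change of 0.21 (SE 0.11) in the 7 livers and 0.25 (SE 0.10) in the 5, where its limma adjusted p was 0.468. The opposite strand gene *Gm11175* shares 52.6% of the *Jund* exon bases.

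The Egr zinc finger factors bind GC-rich sites and are classical targets of the serum response factor. *Egr1* was at 410, 323, 360 and 293 normalised counts in FL livers and 282, 826 and 331 in WT livers. *Egr2* was at 14, 7, 13 and 8 in FL livers and 16, 90 and 13 in WT livers. *Egr3*, too low for a test, was at 2, 1, 5 and 2 in FL and 1, 13 and 2 in WT. All 3 were highest in WT replicate 2, and in the other 6 livers the groups overlapped for each. The log2 fold change of *Egr2* was -1.33 (SE 0.66, limma adjusted p = 0.999) and shrank to -0.59 (SE 0.42) in the 5 livers, and that of *Egr1* went from -0.31 (SE 0.35) to 0.15 (SE 0.15).

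Promoter windows from RefSeq are shown for 3 members that WT replicate 2 moved far and in which a known early response element lay close to the start. Each shows the 150 bases before an annotated start on the plus strand of GRCm38.p6, with the element in capitals and positions counted back from the start. The third of 5 *Egr2* windows, chr10:67537719-67537868, holds a serum response element from -72 to -63, the *Dusp5* window, chr19:53528995-53529144, holds 2 of them side by side from -82 to -73 and from -72 to -63, and the second *Maff* window, chr15:79347370-79347519, holds a cAMP response element from -29 to -22.
Egr2: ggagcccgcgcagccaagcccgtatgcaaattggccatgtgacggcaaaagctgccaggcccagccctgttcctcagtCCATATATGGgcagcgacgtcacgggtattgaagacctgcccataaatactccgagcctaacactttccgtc
Dusp5: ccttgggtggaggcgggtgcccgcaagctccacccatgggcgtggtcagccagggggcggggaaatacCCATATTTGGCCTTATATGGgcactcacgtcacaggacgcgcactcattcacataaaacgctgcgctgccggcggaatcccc
Maff: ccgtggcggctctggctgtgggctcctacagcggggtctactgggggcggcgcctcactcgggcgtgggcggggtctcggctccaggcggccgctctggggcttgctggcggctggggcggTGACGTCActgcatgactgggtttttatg

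*Egr2* and *Dusp5* hold the same kind of element, and in WT replicate 2 *Egr2* was the highest and *Dusp5* the lowest of all livers. The part of any element in the displacement of a member was not tested. Over all genes of the RefSeq table (250 bases before to 50 after each start, both strands), 30 of the 39 members had a window. *Egr1*, *Egr3*, *Fosl1*, *Cebpd*, *Klf5*, *Klf10*, *Myc*, *Ier2* and *Dusp4* had none and were not searched. An element further from the start could not be found either, so no match does not mean that a gene lacks the element. The serum response element was found in 3 of the 30 (10%; *Egr2*, *Dusp5* and *Zfp36*) and in 1.81% of all 27025 genes. The cAMP response element TGACGTCA was found in 2 members, *Maff* and *Dusp1* (6.67%), and in 2.03% of all genes. The EGR site GCGGGGGCG was found in 8 members (26.7%; *Fosb*, *Fosl2*, *Mafk*, *Klf2*, *Klf4*, *Nr4a1*, *Dusp2* and *Zfp36*) and in 3.31% of all genes. Among these 8, WT replicate 2 was more than 2-fold above both other WT livers for *Klf4* and *Nr4a1* and within 2-fold of at least 1 of them for the other 6. The AP-1 site TGANTCA was found in 1 member, *Csrnp1*, and in 8.97% of all genes, and TATAAA in 7 members (23.3%) and in 15.7% of all genes. The p53 response element was found in no member's window and in 0.074% of all genes. The 30 members had 48 windows and all 27025 genes 32851, and a gene with more windows has more places for a match. Per window the shares were 12.5% against 1.63% for the serum response element and 4.17% against 1.79% for the cAMP response element. They were 16.7% against 2.91% for the EGR site, 2.08% against 7.81% for the AP-1 site and 16.7% against 13.6% for TATAAA. These matches are letters in a window and do not show binding.

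The other bZIP factors include stress-induced and liver-enriched proteins. *Atf3*, a stress-induced factor that mostly represses, was among the most abundant members per length at 1008 normalised counts per kb. Its normalised counts were 2225, 1955, 2576 and 1492 in FL livers and 1471, 2786 and 2695 in WT livers. Both groups spanned nearly the same range (log2 fold change -0.14, SE 0.27, limma adjusted p = 0.999).

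*Maff*, a small Maf protein without an activation domain of its own, showed one of the widest spreads. It was at 3264, 2759, 854 and 1770 in FL livers and 2358, 333 and 2413 in WT livers, 9.78-fold from the lowest to the highest as value + 1. WT replicate 2 and FL replicate 3 were the lowest of their genotypes. The log2 fold change was 0.63 (SE 0.75) in the 7 livers and 0.08 (SE 0.21) in the 5. Its relative *Mafk* went the same way less far, at 1110 in FL replicate 3, 1011 in WT replicate 2 and 1290 to 1836 elsewhere.

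*Cebpb*, a liver-enriched factor needed for hepatocyte proliferation after injury, was the most abundant member per length, at 2007 normalised counts per kb. *Cebpb* (chr2:167688915-167690418, plus strand) was at 3958, 4934, 2188 and 3774 normalised counts in FL livers and 2330, 1259 and 2690 in WT livers. FL replicate 3 lay among the WT livers and the other FL livers lay above them. The log2 fold change was 0.84 (SE 0.33), with an unadjusted p of 0.037, an adjusted p of 0.999 in limma and an exact permutation p of 0.114. In the 5 livers it was 0.74 (SE 0.12), with the lowest limma adjusted p of any member, 0.123. The unadjusted limma p rose above 0.05 without FL replicate 1, 2 or 4 (0.078 to 0.091) and without WT replicate 2 (0.104, log2 fold change 0.51).

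*Cebpd*, an acute phase factor of the same family, was at 224, 247, 226 and 315 normalised counts in FL livers and 192, 167 and 187 in WT livers. All FL livers lay above all WT livers. The log2 fold change was 0.46 (SE 0.15), with an unadjusted p of 0.017 and an adjusted p of 0.999 in limma. The exact permutation p was 0.029, the smallest that 4 against 3 livers can give. That p follows from groups that do not overlap and adds nothing to it. *Cebpd* (chr16:15887286-15891031, plus strand) kept an unadjusted limma p under 0.05 when any single liver or both that stood apart were left out. With the replicate block that p was 0.099. The *Cebpd* log2 fold changes lay between 0.35 and 0.52 over all alternatives. Opposite strand exons of *Tmem189* and *Spidr* cover 20.7% of the *Cebpb* and 15.0% of the *Cebpd* exon bases.

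**Figure D2:**
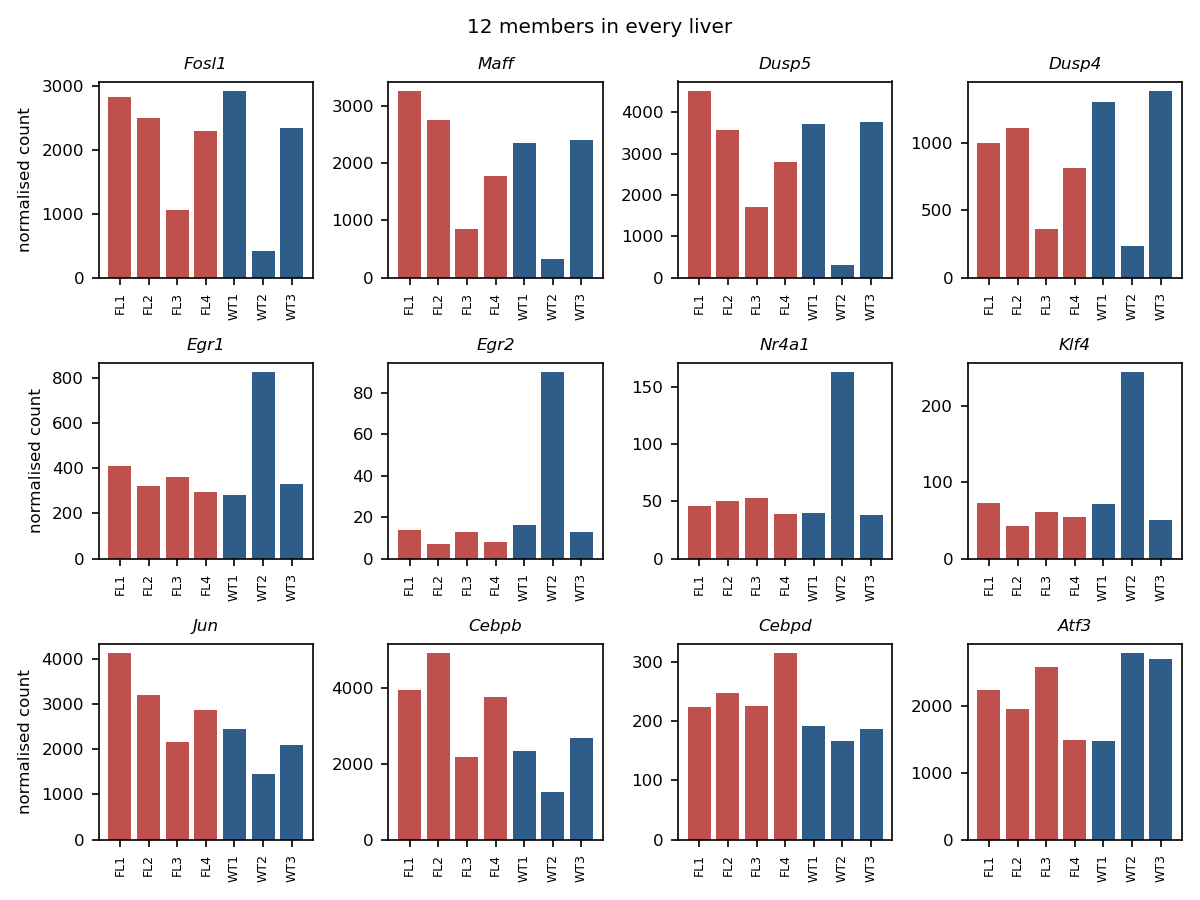
Normalised counts of 12 members in every liver (FL replicates 1 to 4 in red, WT replicates 1 to 3 in blue; each panel has its own linear axis from 0). The top row is low in FL3 and WT2, the middle row is high in WT2, and in the bottom row *Cebpd* has every FL liver above every WT liver.

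The Klf zinc finger factors and Myc differed from each other in pattern. *Klf4*, a growth-restraining factor, was at 73, 43, 61 and 55 normalised counts in FL livers and 72, 244 and 50 in WT livers, high in WT replicate 2. *Klf6*, an early gene of liver injury, went the other way, at 3895, 3609, 1361 and 2113 in FL and 3229, 1002 and 2938 in WT. *Klf10*, induced by TGF-beta, was at 1164, 1554, 489 and 1072 in FL and 806, 436 and 935 in WT. The 3 FL livers other than replicate 3 were above every WT liver for *Klf10*, and its log2 fold change was 0.52 (SE 0.41) in the 7 livers and 0.52 (SE 0.15, limma adjusted p = 0.323) in the 5. Leaving out 1 of the pair alone moved the *Klf10* estimate in opposite directions, to 0.18 without WT replicate 2 and 0.85 without FL replicate 3.

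*Klf5* was low in all livers, at 4, 11, 3 and 2 in FL and 25, 7 and 16 in WT, below the minimum in the 7 livers and above it in the 5 (log2 fold change -1.90, SE 0.60, limma adjusted p = 0.364). *Klf2*, a factor of endothelial cells under flow, spanned 88 to 148 with full overlap of the groups. *Myc*, which drives growth and ribosome production, was at 2744, 2342, 1809 and 2121 in FL livers and 2660, 1672 and 2511 in WT livers. The *Myc* genotype means differed by -0.004 on the log2 scale (SE 0.20, 95% interval -0.47 to 0.46).

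The Nr4a orphan nuclear receptors are early genes that need no ligand. *Nr4a1* was at 46, 50, 53 and 39 normalised counts in FL livers and 40, 163 and 38 in WT livers, so 6 livers lay between 38 and 53 and WT replicate 2 far above. *Nr4a2* was at 13, 32, 12 and 9 in FL and 15, 25 and 18 in WT. *Nr4a3* was at 14, 3, 7 and 0 in FL and 11, 26 and 15 in WT, a log2 fold change of -1.89 (SE 0.90, limma adjusted p = 0.999) at counts where a few reads set the value. *Nr4a3* met the minimum only through the WT livers, with a mean of 6 in FL and 17.3 in WT, so the filter favoured its direction.

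The Ier and Csrnp genes encode small, mostly nuclear proteins of the early response. *Ier2* was the steadiest member, at 546 to 649 normalised counts in FL and 549 to 580 in WT. *Ier3*, which modulates survival signalling, was at 94, 118, 80 and 105 in FL livers and 79, 82 and 85 in WT livers. The WT livers lay close together at the low end of the *Ier3* FL range (log2 fold change 0.26, SE 0.17, limma adjusted p = 0.999). *Ier5* was at 837, 571, 442 and 622 in FL and 478, 367 and 448 in WT, with a log2 fold change of 0.49 (SE 0.21) in the 7 livers and 0.53 (SE 0.15, limma adjusted p = 0.324) in the 5. *Ier5l* was at 14 to 30 in FL and highest in WT replicate 2, at 41. *Csrnp1* was at 912 to 1252 in FL and lowest in WT replicate 2, at 608.

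The Dusp phosphatases remove the activating phosphates from MAP kinases and are themselves induced by them. *Dusp5*, which acts on nuclear ERK, was at 4517, 3566, 1717 and 2805 normalised counts in FL livers and 3712, 313 and 3767 in WT livers. *Dusp4*, another nuclear enzyme, was at 1001, 1107, 359 and 813 in FL and 1304, 234 and 1386 in WT. *Dusp6*, the cytoplasmic ERK phosphatase, was at 2206, 2253, 521 and 1700 in FL and 1786, 539 and 1227 in WT. All 3 were lowest in WT replicate 2 and FL replicate 3 within their genotypes.

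Leaving out those livers changed the *Dusp4* estimate from 0.01 (SE 0.66) to -0.48 (SE 0.13, limma adjusted p = 0.284), with all 3 remaining FL livers below both remaining WT livers. *Dusp5* went from 0.86 (SE 0.84) to -0.07 (SE 0.16), and *Dusp6* was at 0.45 (SE 0.59) and 0.46 (SE 0.17). With only 1 of the pair left out, *Dusp6* was at -0.03 without WT replicate 2 and 0.95 without FL replicate 3. *Dusp1*, which acts on JNK and p38, was less displaced, at 3544, 3252, 2213 and 2823 in FL and 2308, 1343 and 2805 in WT, and its log2 fold change was 0.50 (SE 0.27) in the 7 livers and 0.33 (SE 0.12, limma adjusted p = 0.424) in the 5. *Dusp2*, an enzyme of immune cells, was at 14 to 21 in FL and 20 to 27 in WT.

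The other effectors act outside the transcription factor cascade. *Zfp36* (tristetraprolin), which speeds the decay of transcripts with AU-rich elements, was at 1462, 1209, 1296 and 1605 in FL and 735, 1419 and 1203 in WT. Its log2 fold change was 0.36 (SE 0.22) in the 7 livers and 0.59 (SE 0.19, limma adjusted p = 0.372) in the 5, where the lowest FL liver (1209) and the highest WT liver (1203) nearly met. The *Zfp36* estimate fell to 0.08 without WT replicate 1. *Sgk1*, a kinase induced by serum and glucocorticoids, was at 348, 319, 679 and 670 in FL and 281, 1057 and 316 in WT. *Tsc22d1*, a leucine zipper protein induced by TGF-beta, was highest in WT replicate 2, at 549 against 209 to 323 elsewhere. *Btg1*, an antiproliferative protein, was lowest in WT replicate 2, at 852, and next lowest in FL replicate 3, at 1060. *Rhob*, a small GTPase, spanned 643 to 936 and was highest in WT replicate 2.

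**Figure D3:**
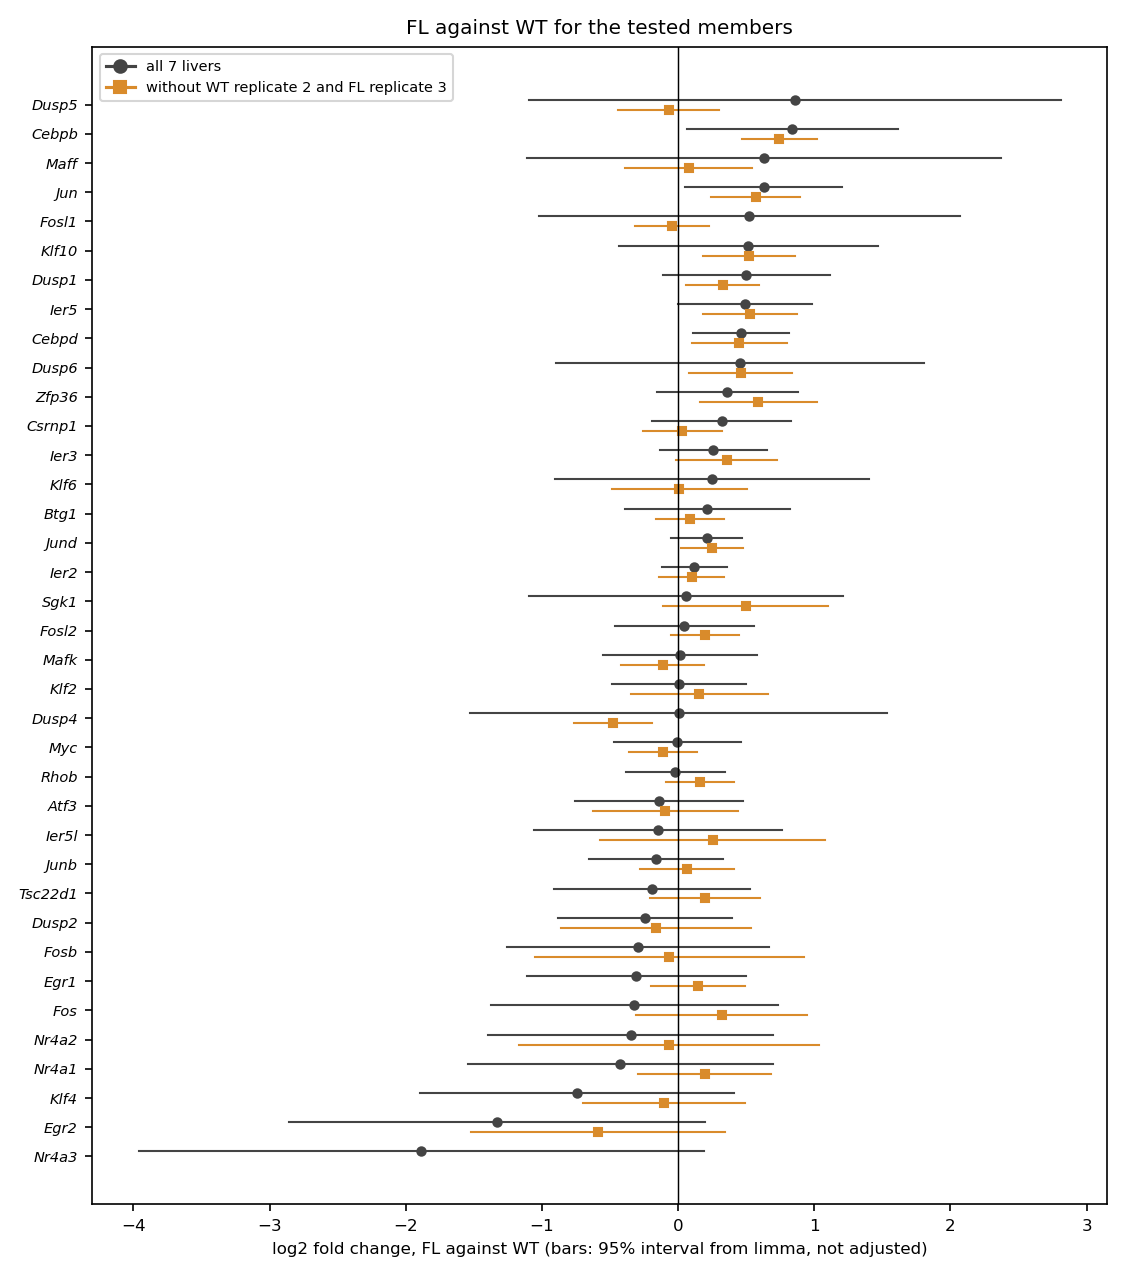
Log2 fold change of FL against WT with its 95% interval from limma for the 37 tested members, in all 7 livers (grey) and without WT replicate 2 and FL replicate 3 (orange; *Nr4a3* fell below the minimum there). The intervals of *Jun*, *Cebpb* and *Cebpd* lie above 0 in both, and those of *Dusp5*, *Maff* and *Fosl1* narrow around 0 in the 5 livers.

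Without the pair of livers that stood apart, 9 members were higher in FL at an unadjusted p under 0.05 (24.3% of 37, against 4.57% of the 12325 genes tested there), *Jun*, *Jund*, *Cebpb*, *Cebpd*, *Klf10*, *Ier5*, *Dusp1*, *Dusp6* and *Zfp36*. Only *Klf5* and *Dusp4* were lower among the members (5.41%, against 5.17% of all genes). *Klf5* met the minimum there only through its WT livers (25 and 16, against 4, 11 and 2 in FL), so the filter favoured its direction. None passed adjustment over all genes, where 0.0487% of all genes did. All FL livers lay above all WT livers for 11 members (29.7%, against 12.8% of all genes). They lay below them for 2, again *Klf5* and *Dusp4* (5.41%, against 14.6%). The livers were left out for standing apart in these data, so these counts describe the remaining 5 and are no independent test.

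WT replicate 2 was displaced in both directions. It was more than 2-fold above both other WT livers for 7 members (18.9%, against 9.23% of all genes), *Fos*, *Egr1*, *Egr2*, *Klf4*, *Nr4a1*, *Sgk1* and *Tsc22d1*. It was more than 2-fold below both for 6 members (16.2%, against 6.31%), *Fosl1*, *Maff*, *Klf6*, *Dusp4*, *Dusp5* and *Dusp6*. FL replicate 3 was more than 2-fold above all other FL livers for none (against 1.94% of all genes) and more than 2-fold below them for 5 (13.5%, against 1.24%), *Fosl1*, *Maff*, *Klf10*, *Dusp4* and *Dusp6*. The genes low in both were thus *Fosl1*, *Maff*, *Dusp4* and *Dusp6*, while the 7 genes high in WT replicate 2 were not displaced to that size in FL replicate 3.

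Across the 37 members both livers lay on the same side of their genotype for 27 (73.0%), where 79.8% of all genes did. The displacements correlated with r = 0.804 over the members and 0.765 over all 12545 genes, a description across genes that share the same 7 libraries. The median ratio of the highest liver to the lowest, each as value + 1 and not logged, was 2.64 for the members and 1.65 for all genes, and over the other 5 livers 1.68 and 1.31. Within 2-fold across all 7 livers were 12 members (32.4%, against 67.11% of all genes), and within 2-fold across the other 5 were 29 (78.4%, against 89.35% of all genes).

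**Figure D4:**
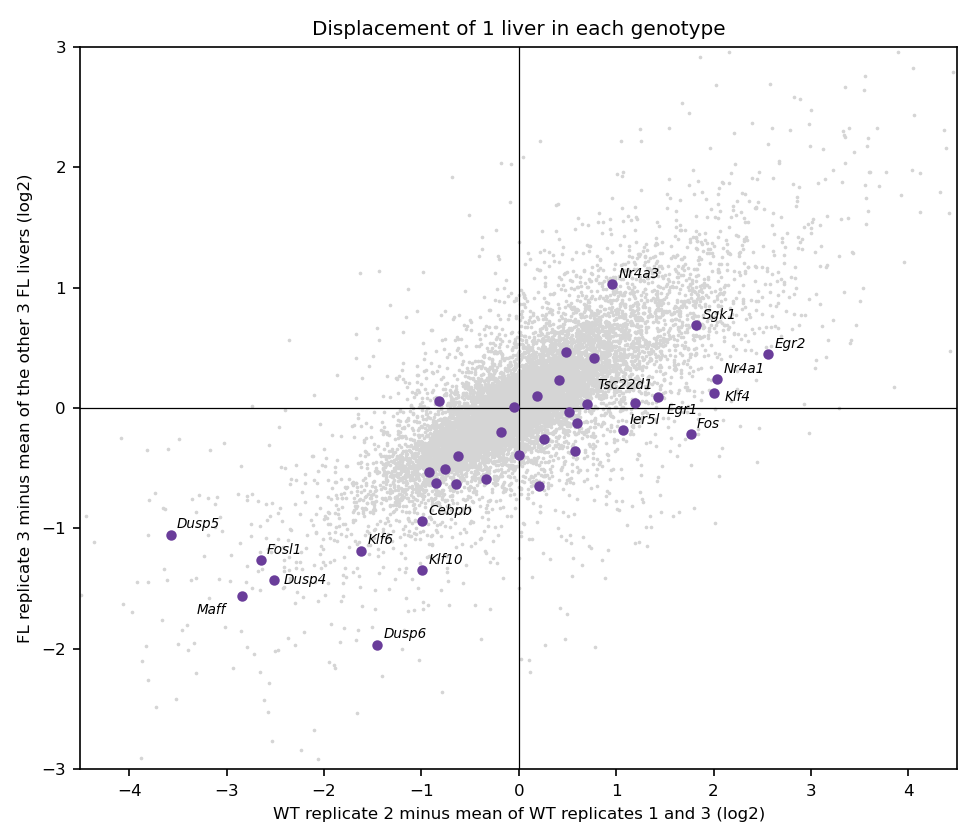
Displacement of WT replicate 2 from the mean of the other WT livers (horizontal, log2) against that of FL replicate 3 from the mean of the other FL livers (vertical, log2), for the 37 tested members (purple) and all other tested genes (grey; 48 of 12545 lie beyond the axes). *Dusp5*, *Maff*, *Fosl1* and *Dusp4* sit at the lower left, and *Egr2*, *Nr4a1*, *Klf4* and *Fos* sit at the right near the horizontal line.

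Marker sums of several other cell types were highest in WT replicate 2, but not of all. The blood markers summed to 2280 there, the lowest of all livers, with *Alas2* at 995 there and at 1261 and 1526 in the other WT livers. The globins were not low there among the WT livers, with *Hbb-bs* at 817 (673 and 803 in the others) and *Hbb-bt* at 162 (140 and 173). The bile duct markers summed to 1206 there, within the range of the other livers, and to 603 in FL replicate 3, the lowest of all. In bulk tissue, a change in the number of cells of a type and a change in RNA per cell cannot be told apart. The 10 Kupffer cell and macrophage markers summed to 12677 normalised counts in WT replicate 2 (9 of the 10 highest there) and to 4873 to 7874 in the other livers, with FL replicate 3 the highest FL liver. The 8 stellate cell and fibroblast markers summed to 7885 in WT replicate 2 and 2907 to 3865 elsewhere, and the 8 dividing cell markers to 1415 and 344 to 566. The 7 analysed lymphocyte markers summed to 220 in WT replicate 2 and 35 to 125 elsewhere, and the 8 endothelial markers to 5801 and 4005 to 5458. The 6 analysed neutrophil markers summed to 190 in WT replicate 2 and 44 to 125 elsewhere, but only 3 of the 6 were highest there. *Csf3r* alone was at 113 in WT replicate 2. *S100a8* was at 13 there and 22 in WT replicate 1, and *Cxcr2* at 7 and 10. None of the markers analysed was at 0 in every liver. The part of these cells in the displaced members was not tested.

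Between genotypes, 4 of 5 tested erythroid and blood markers were higher in FL at an unadjusted p under 0.05, where 1.59% of all genes were. For *Hbb-bs* the log2 fold change was 0.63 (SE 0.15, limma adjusted p = 0.999). The 6 erythroid and blood markers summed to 2764 to 3605 in FL and 2280 to 2788 in WT. Of the 5 tested bile duct markers, *Krt19* and *Krt7* were lower in FL (1.6% of all genes) and *Sox9* higher (1.59%) at that threshold. The 6 listed summed to 603 to 1482 in FL and 884 to 1207 in WT. Of the hepatocyte markers, 2 of 8 were higher in FL at that threshold (1.59% of all genes). The part of these cell types in the values of *Jun*, *Cebpb* and *Cebpd* was not tested.

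Genes around the response were examined as lists. Of 29 inputs, the MAP kinases, the serum response factor with its partners and CREB, none passed an adjusted p of 0.05, and none an unadjusted one. Their median log2 fold change was 0.03 against 0.01 over all genes, and -0.05 against -0.01 in the 5 livers, where *Map2k3* was lower in FL at an unadjusted p under 0.05. *Srf*, the serum response factor itself, was at 1360, 1221, 711 and 1060 normalised counts in FL livers and 1455, 447 and 1347 in WT livers, low in the same livers as *Fosl1* and the Dusp genes. WT replicate 2 was more than 2-fold below both other WT livers for 4 of the 29 (6.31% of all genes) and above both for 1 (9.23%).

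Of 14 tested bZIP partners outside the members, 1 was higher in FL at an unadjusted p under 0.05 (1.59% of all genes) and none lower (1.6%). This was *Cebpa*, the hepatocyte relative of *Cebpb*, at 7169, 7099, 6823 and 6160 in FL livers and 5954, 4668 and 5898 in WT livers. All *Cebpa* values in FL lay above those in WT (log2 fold change 0.31, SE 0.13, limma adjusted p = 0.999). In the 5 livers 3 other partners were higher in FL at that threshold (4.57% of all genes), *Creb3l3*, *Atf5* and *Nfil3*, and *Cebpa* was not among them.

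Of 18 feedback inhibitors, 1 was higher in FL at that threshold (1.59% of all genes), *Errfi1*, an inhibitor of the EGF receptor. *Errfi1* was at 23288, 24569, 16240 and 26613 in FL and 14574, 11201 and 16977 in WT (log2 fold change 0.67, SE 0.21, limma adjusted p = 0.999). WT replicate 2 was more than 2-fold below both other WT livers for 5 of the 18 (6.31% of all genes) and above both for 1 (9.23%). The median log2 fold change of the 18 was 0.02, also in the 5 livers. There 3 were higher in FL (4.57% of all genes) and 1 lower (5.17%) at an unadjusted p under 0.05. Of 28 tested early genes outside the members, 1 was higher in FL at that threshold in the 7 livers (1.59% of all genes), *Areg*, an EGF receptor ligand. *Areg* was at 64, 65, 52 and 77 in FL against 50, 36 and 48 in WT (log2 fold change 0.52, SE 0.21, limma adjusted p = 0.999). The median of the 28 was 0.15 and, in the 5 livers, 0.12, where 7 were higher in FL at that threshold (4.57% of all genes) and none lower (5.17%).

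Of 15 tested genes with AP-1 sites that rise later, none passed an unadjusted p of 0.05, and the median log2 fold change was -0.36. In the 5 livers, where 14 were tested, it was -0.32, and 4 were lower in FL at that threshold (5.17% of all genes), *Mmp3*, *Mmp10*, *Mmp13* and *Ccnd1*, none after adjustment. *Ccnd1* (cyclin D1) of that list was at 443, 213, 527 and 331 in FL livers and 475, 2564 and 543 in WT livers, highest in WT replicate 2. *Mmp13*, a collagenase, was at 362, 152, 34 and 78 in FL and 375, 139 and 363 in WT, lowest in FL replicate 3. WT replicate 2 was more than 2-fold above both other WT livers for 4 of the 15 (9.23% of all genes) and more than 2-fold below both for 5 (6.31%). Of 12 glucocorticoid-induced genes, 11 had a higher fitted mean in FL, where 51.6% of all genes did, with a median log2 fold change of 0.50. In the 5 livers it was 10 of 12 (47.0% of all genes), with a median of 0.32, and 5 were higher at an unadjusted p under 0.05 (4.57% of all genes). In the 7 livers 1 of the 12 was higher in FL at an unadjusted p under 0.05 (1.59% of all genes), *Errfi1*, which is also among the feedback inhibitors. None passed adjustment.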

How the data were processed

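Poly(A) RNA of 7 livers (4 FL, 3 WT) was sequenced from a stranded library kit. Per the labels and the methods, the authors used bcl2fastq 2.15.0.4, TopHat2 2.0.13 with Bowtie2 2.2.6.0, HTSeq and featureCounts (both named in the notes, with no roles) and DESeq2 in R 3.4.2, with an Ensembl release 75 annotation. The strand setting of counting is not given in the sources used here, and the notes name a human genome build. The values the authors deposited are a score, read counts divided by DESeq2 size factors and rounded to whole numbers, so no count model was run and depth was estimated from the spacing of low values. The table's 14988 rows held 14851 identifiers (120 repeated, with identical values), of which 14839 matched a symbol in GENCODE vM21.

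Genes with a mean of at least 10 (12545) were tested on log2(value + 1) with limma 3.58.1 in R 4.3.3 (trended variance, Benjamini-Hochberg adjustment over all genes). Fold changes are on this scale, which understates those of low genes. Exact permutation tests of single genes were two-sided over 35 arrangements. Figures used Python 3.11.15. Each liver is a separate mouse, and groups came from the labels. Lists of other genes without both livers were added after the data were seen. Members and lists were chosen with earlier results of these data known. Values in every liver were to be given for *Fos*, *Jun*, *Junb*, *Egr1*, *Atf3*, *Myc* and *Ier3*, for members under an unadjusted p of 0.05, for the 8 tested members with the widest spread and for members too low for a test. Other members and list genes were named after their values were seen. Alternatives were other pseudocounts, filters, scalings and variance settings, array weights, a replicate block and leaving livers out, and leaving out both livers that stood apart is given beside the results.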

Additional observations from a re-analysis of the deposited data

Results flagged for a closer look

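Of the 37 tested members, 1 had a liver far from the others of its group by Dixon's test. *Fosb* stood at 22 normalised counts in FL replicate 1 and at 8 to 10 in the other 3 FL livers, a gap of 0.857 of the group's range. Groups of 3 were not examined, so this covers the FL livers alone, and chance alone would flag about 1.85 of 37 genes. FL replicate 3 was not singled out by it for any member.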

How the results depend on the processing

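No member passed adjustment over all genes under any alternative run, so the limits below concern counts and single estimates. Among all genes, 2 were called, and 0 were called with a pseudocount of 5 (404 at an unadjusted p under 0.05), with at least 10 in every liver (356), with a mean of at least 50 (316), without the variance trend (465) and with the replicate block (110). Quantile normalisation gave 1, array weights 5, leaving out both livers that stood apart 6, and leaving out 1 liver 0 to 5. Members at an unadjusted p under 0.05 numbered 3, and 5 with no filter on low values (12.8% against 3.78% of all genes). There were 8 with array weights (21.6% against 12.1%), 0 with the replicate block (against 0.877%) and 11 without both livers (29.7% against 9.74%). With 1 liver left out they ran from 1 to 6. The 1 was without FL replicate 2 (2.70% against 2.08% of all genes) or 4 (2.63% against 1.97%), and the 6 without FL replicate 3 (15.8% against 4.14%). Members whose groups did not overlap numbered 1, and 13 without both livers (29.7% above and 5.41% below, against 12.8% and 14.6% of all genes). Without 1 liver they numbered 2 to 7. Fewer livers overlap less easily, and no share of all genes was taken there, so these counts are no result about the members. Members displaced in WT replicate 2 numbered 13 at 2-fold, 24 at 1.5-fold and 5 at 4-fold, and those in FL replicate 3 numbered 5, 8 and 0. The share of all genes was taken at 2-fold only, so the other counts show just how the number depends on the cutoff. The *Dusp4* log2 fold change turned from 0.01 to -0.48 without both livers. The sign differed for 16 of 37 members without WT replicate 2, for 12 with array weights and for 11 without both livers. *Jun*, *Cebpb* and *Cebpd* were higher in FL under every alternative. Leaving out 1 liver brought further members under an unadjusted p of 0.05. These were *Nr4a3* (lower in FL) without FL replicate 1 (2.58% of all genes called), *Dusp1*, *Ier5* and *Klf10* (higher) without FL replicate 3 (4.14%), *Jund* and *Zfp36* (higher) and *Klf5* (lower) without WT replicate 2 (5.97%), and *Dusp1* (higher), *Egr2* and *Klf4* (lower) without WT replicate 3 (3.00%). In these fits *Nr4a3* and *Klf5* met the minimum only through the WT livers. Whether the replicate numbers pair the livers is not known. The deviations of same-numbered livers correlated at 0.44, -0.48 and -0.66 for replicates 1, 2 and 3. The values for replicates 2 and 3 include the livers that stood apart, so they cannot decide it. In the block fit FL replicate 4 has no partner and adds nothing to the comparison. Beyond these alternatives the cause of each change was not tested. Depth limits the members under about 20 normalised counts, where a few reads move the fold change.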
